A study of Mus musculus with 48 samples.

Results

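Levels of 44 genes that extend over long stretches of the mouse genome were followed in liver after antisense treatment. They were taken from a list of 50 genes with long genomic spans by keeping each gene with a mean of at least 1 CPM (read counts as a share of the library total, on a common scale) over the 12 PBS libraries, so 44 of 23930 genes in the deposited table are described, and all 44 passed the filter on low counts that left 12672 genes for testing. The 48 libraries came from mouse livers given PBS, the control, or LX-A1656, LX-A2003 or LX-A3928, gapmer antisense oligonucleotides directed against Scarb1, the HDL receptor gene. Livers were sampled 24, 72 or 168 h (days 1, 3 and 7) after the first administration, with 4 replicates in each of the 12 groups. The material used here states no dose, strain, sex or age and does not say whether the replicates were separate animals, so the p-values measure the spread between these libraries, which may be technical.

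A gapmer is a chimeric oligonucleotide whose DNA core forms a hybrid with RNA that RNase H cuts. RNase H acts in the nucleus as well as in the cytoplasm, so unspliced precursor RNA, introns included, can be cut along with mature mRNA. The transcript of a gene with a long span is mostly intron before splicing. Whether any of these genes is bound by the oligonucleotides was not tested, because their sequences were not used here.

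The 44 genes span 207.116 kb (Magi3) to 2270.72 kb (Ptprd) in the GENCODE vM21 annotation of GRCm38, with a median of 572.287 kb, against a median of 24.313 kb over the 12395 tested genes that have an annotated span. The longest stretch without an annotated exon was 27.825 kb in Ralgapa1 and 530.573 kb in Rora, with a median of 127.821 kb over the 44 genes. By role they comprise 11 transcription and chromatin regulators, 9 junction, polarity and cytoskeletal scaffolds, 7 proteins of membrane traffic and the cilium, 6 receptors, 5 kinases, phosphodiesterases and GTPase regulators, 5 enzymes and genome maintenance proteins and 1 RNA-binding protein. The assay reads 1 designed amplicon per gene whose place in the transcript is not stated in the material used here, so levels of different genes are not compared as amounts of RNA. PBS levels in CPM were used for the level rule, to pick uncalled genes to name, and for a rank correlation given below.

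The 6 listed genes that missed the level rule were Magi2, Auts2, Msi2, Thsd4, Sdk1 and Ust, with PBS means of 0.108 to 0.283 CPM. They are not described further because a mean this low holds few reads: Magi2 had 12 reads in the 12 PBS libraries and 12 in the 36 treated libraries, and Ust had 17 and 148. Sdk1, at 0.283 CPM, was the nearest gene below the limit of 1 CPM. Foxp2 at 1.19 CPM and Nbea at 1.41 CPM were the nearest above it. Because the rule reads PBS alone, a gene that is low in PBS and high after treatment cannot be among the 44.

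The stretches of 250 bases upstream of the annotated start are shown for genes at both ends of the response described below, among those with a promoter entry. The most upstream annotated start was taken for every gene, and Ralgapa1 and Mllt3 had 2 entries each. Which start is used in these livers was not tested. Erbb4 and Sox5 had the lowest mean change over the 9 comparisons with PBS, and Ralgapa1 and Mllt3 had the highest among the genes with an entry in the RefSeq promoter table (GRCm38.p6), which matched 36 of the 44. Arhgap10, with the highest mean change of the 44 genes (0.53), had no entry. Ralgapa1 and Mllt3 were called in none of the 9 comparisons, as given below. Each is written 5′ to 3′ on the strand of the gene, with CG dinucleotides in capitals.
Erbb4, chr1:69108060-69108309, minus strand: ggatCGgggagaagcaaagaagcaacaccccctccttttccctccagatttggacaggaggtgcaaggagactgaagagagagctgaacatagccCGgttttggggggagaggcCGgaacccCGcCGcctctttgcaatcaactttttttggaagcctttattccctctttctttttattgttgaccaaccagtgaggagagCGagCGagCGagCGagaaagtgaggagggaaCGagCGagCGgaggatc
Sox5, chr6:143947107-143947356, minus strand: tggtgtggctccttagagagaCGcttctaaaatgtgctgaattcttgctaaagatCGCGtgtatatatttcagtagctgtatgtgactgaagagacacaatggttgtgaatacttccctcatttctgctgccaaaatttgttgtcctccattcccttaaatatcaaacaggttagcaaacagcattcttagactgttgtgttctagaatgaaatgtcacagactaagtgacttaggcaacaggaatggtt
Ralgapa1, chr12:55821517-55821766, minus strand: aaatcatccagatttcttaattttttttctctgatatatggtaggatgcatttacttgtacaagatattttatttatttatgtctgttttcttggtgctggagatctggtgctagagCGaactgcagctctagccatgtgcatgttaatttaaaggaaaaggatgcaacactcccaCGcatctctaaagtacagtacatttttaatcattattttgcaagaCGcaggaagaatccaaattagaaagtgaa
Mllt3, chr4:88033408-88033657, minus strand: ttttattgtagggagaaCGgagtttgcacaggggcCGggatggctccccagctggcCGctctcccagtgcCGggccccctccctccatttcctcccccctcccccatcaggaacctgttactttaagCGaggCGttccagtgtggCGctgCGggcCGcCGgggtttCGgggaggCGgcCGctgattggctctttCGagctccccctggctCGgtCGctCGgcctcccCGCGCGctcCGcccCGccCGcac

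The CG dinucleotides numbered 12 in Erbb4, 3 in Sox5, 3 in Ralgapa1 and 23 in Mllt3. With these starts, the genes shown for each end of the response held a CG-poor and a CG-richer stretch. The GC content was 54.0% in Erbb4, 39.6% in Sox5, 34.4% in Ralgapa1 and 69.2% in Mllt3, and the median over the 36 matched genes was 59.4%, against 59.6% over the 9629 tested genes with an entry. On either strand, GGGCGG was found in 47.2% of the 36 stretches against 57.1% of those of all tested genes, CCAAT in 25.0% against 35.7%, and TATAAA in 5.56% against 6.93%. Of these 3 motifs, Mllt3 held GGGCGG 2 times and CCAAT 1 time, and the stretches of Erbb4, Sox5 and Ralgapa1 held none.

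Library totals were 8140065 to 17191129 reads, with a median of 10659453. Scarb1 checked the labels: it was at 236 to 410 CPM in the 12 PBS libraries and at 3.36 to 56.8 CPM in the 36 treated libraries, with no overlap. Of marker lists for liver cell types, the summed level of 10 sinusoidal endothelial genes at 72 h was 389 to 440 CPM in PBS, 131 to 151 after LX-A1656, 236 to 260 after LX-A2003 and 217 to 264 after LX-A3928. At 168 h the sum for 8 stellate and myofibroblast genes was 450 to 482 CPM in PBS and 786 to 1883 CPM with the oligonucleotides, and for the 7 measured monocyte and recruited macrophage genes it was 70.1 to 90.2 and 372 to 1367 CPM. Of the 10 endothelial genes at 168 h, 6 were called lower with each oligonucleotide, while 2, 2 and 3 were called higher. Of 8 tested Kupffer cell genes, 6 were called higher at 168 h with each oligonucleotide, and 1 was called lower with LX-A1656. With LX-A1656 at 72 h, 6 of 7 monocyte and recruited macrophage genes and 3 of 3 tested neutrophil genes were already called higher. In that comparison 24.7% of all tested genes were called higher. The sum of the 6 measured hepatocyte genes at 72 h was 34899 to 50377 CPM with LX-A1656 and 57802 to 65670 CPM in PBS. At 168 h the hepatocyte sum was 56998 to 74355 CPM in PBS, 26243 to 47765 with LX-A1656 and LX-A2003, and 23937 to 86107 with LX-A3928. None of the endothelial, stellate, monocyte or hepatocyte markers was at 0 in a whole group, while the markers C1qa (Kupffer cells) and Ly6g (neutrophils) were at 0 in 3 and 4 of the 12 groups. In bulk tissue, fewer cells of a type and less RNA per cell cannot be told apart, and the part of cell composition in the results below was not tested.

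Against PBS of the same time, most of the 44 genes were called lower in treated liver at 72 and 168 h. Fewer were called at 24 h, though 42, 38 and 33 had values below PBS after LX-A1656, LX-A2003 and LX-A3928. Those direction counts were 41, 40 and 41 at 72 h and 37, 38 and 38 at 168 h. Levels below are CPM after TMM scaling, changes are log2 fold changes with their standard error, and a gene was called where edgeR's quasi-likelihood test gave an adjusted p (Benjamini-Hochberg over all 12672 genes) under 0.05. Each comparison has n = 4 libraries per group. The 3 comparisons at 1 time share their PBS libraries, so agreement among them is not independent.

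**Figure D1:**
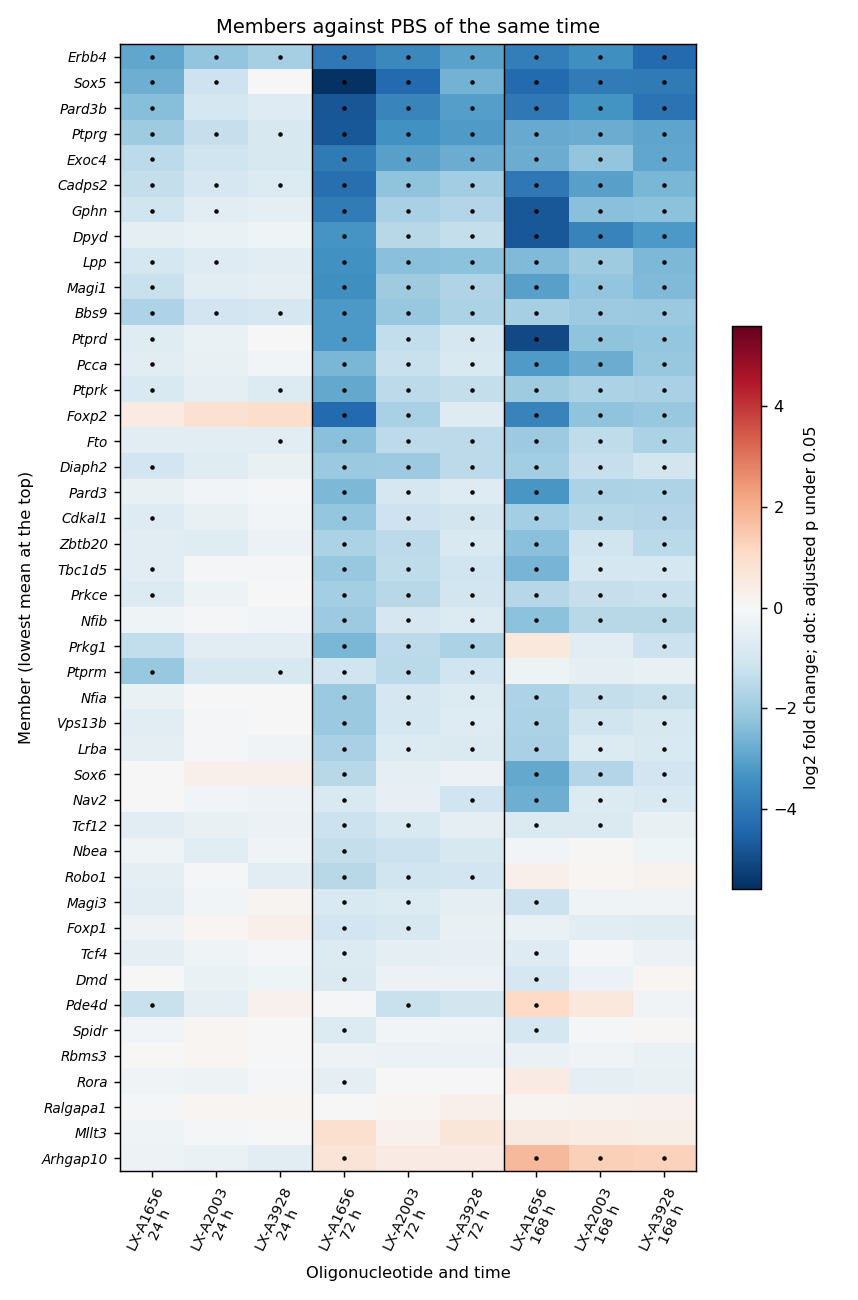
The log2 fold change of each of the 44 genes (rows, lowest mean at the top) against PBS of the same time is shown for the 3 oligonucleotides at 24, 72 and 168 h (columns), where blue is lower than PBS, red is higher, and a dot marks an adjusted p under 0.05. Blue fills most of the columns at 72 and 168 h, Arhgap10 at the foot is red at 168 h, and the Foxp2 value with LX-A1656 at 72 h rests on 3 reads.

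At 24 h, 19 of the 44 genes were called lower with LX-A1656 and none higher. Of all tested genes, 1.88% were called lower and 0.986% higher. Erbb4, a receptor for neuregulins, changed most (-2.92 ± 0.34), followed by Sox5 (-2.72), Pard3b (-2.37), Ptprm (-2.11), Ptprg (-1.97), Bbs9 (-1.74), Exoc4 (-1.46) and Cadps2 (-1.34). The other 11 were Pde4d (-1.27), Magi1 (-1.24), Gphn (-1.12), Diaph2 (-1.05), Lpp (-1.01), Ptprk (-0.85), Prkce (-0.78), Cdkal1 (-0.71), Ptprd (-0.67), Tbc1d5 (-0.65) and Pcca (-0.62). The median change of the 44 genes was -0.62, against 0.02 over all genes tested, and the highest value was 0.46, for Foxp2, which was not called. Of the genes not called, those with the highest PBS levels had values of Dpyd (-0.54), Nfib (-0.26) and Nfia (-0.39). The calls of Pde4d and Ptprd were each lost in 7 of the 8 fits that left out 1 library, those of Cdkal1 and Pcca in 6, Tbc1d5 in 4, Prkce in 3 and Diaph2 in 1 (without PBS replicate 2, adjusted p = 0.0552). The adjusted p of these lost calls reached 0.208. Of the 10 sinusoidal endothelial markers, 4 were also called lower in this comparison, with a summed level of 233 to 262 CPM against 405 to 435 in PBS, and the part of these cells in the change of the 44 genes was not tested.

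With LX-A2003, 7 of the 44 genes were called lower at 24 h, with LX-A3928 also 7, and none were called higher with either. Among all tested genes, 1.15% were called lower and 0.939% higher with LX-A2003, and 1.58% lower and 1.68% higher with LX-A3928. The 7 with LX-A2003 were Erbb4 (-2.22), Ptprg (-1.30), Sox5 (-1.15), Bbs9 (-1.08), Cadps2 (-0.93), Lpp (-0.72) and Gphn (-0.62). The 7 with LX-A3928 were Erbb4 (-1.87), Bbs9 (-0.93), Ptprm (-0.90), Ptprg (-0.89), Cadps2 (-0.78), Ptprk (-0.77) and Fto (-0.65). Their medians over the 44 genes were -0.38 and -0.20, against 0.01 over all tested genes in both. Both lists are sensitive to 1 library: without replicate 3 or replicate 4 of LX-A2003 at 24 h its count was 4, and without replicate 1, 3 or 4 of LX-A3928 at 24 h its count was 4. With LX-A2003 the call of Lpp was lost in 7 of 8 such fits and that of Gphn in 6, with an adjusted p of up to 0.144. With LX-A3928 the call of Ptprm was lost in 7, Fto in 5, Cadps2 in 4, and Bbs9 and Ptprk in 1 each, with an adjusted p of up to 0.166. Of the genes that were not called, Dpyd, Pcca and Nfib had the highest PBS levels, and their changes were Dpyd (-0.37), Pcca (-0.41) and Nfib (-0.11) with LX-A2003 and Dpyd (-0.23), Pcca (-0.13) and Nfib (-0.14) with LX-A3928.

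At 72 h, 39 of the 44 genes were called lower and 1 higher with LX-A1656. With LX-A2003 33 were called lower and with LX-A3928 29, and none were called higher with either. The shares of all tested genes called lower were 23.4%, 6.55% and 5.33% in the same order, and the shares called higher were 24.7%, 5.48% and 4.47%. With LX-A1656, 33 of the 39 genes that fell did so by more than 2-fold. The median change of the 44 genes was -2.06 after LX-A1656, -1.24 after LX-A2003 and -0.98 after LX-A3928, against 0.05, 0.02 and 0.02 over all genes tested. The genes called with LX-A3928 whose values are not given by role below were Erbb4 (-3.02), Pard3b (-3.08), Prkg1 (-1.76), Gphn (-1.62), Dpyd (-1.32), Nav2 (-1.11), Cdkal1 (-1.05), Ptprd (-0.93) and Pard3 (-0.70).

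At 168 h, 33 of the 44 genes were called lower and 2 higher with LX-A1656. With LX-A2003 29 were called lower and 1 higher, and with LX-A3928 29 lower and 1 higher. By this time the background was large: 29.7%, 25.3% and 20.7% of all tested genes were called lower and 34.1%, 29.8% and 27.3% higher. The medians of the 44 genes were -1.91, -1.30 and -1.22, against 0.10, 0.04 and 0.08 over all genes tested. Scaling by library totals alone moved the median of all tested genes at 168 h to 0.56, 0.45 and 0.39, and at 72 h with LX-A1656 to 0.27. With that scaling the medians of the 44 genes were -1.45, -0.89 and -0.92 at 168 h and -1.84 at 72 h with LX-A1656. Genes called at 168 h whose values are not given by role below were Sox5 (-3.92), Pard3b (-3.34), Erbb4 (-3.43), Cadps2 (-3.03), Ptprg (-2.77), Foxp2 (-2.27), Exoc4 (-2.23), Magi1 (-2.21), Bbs9 (-2.05), Nfib (-1.55), Nfia (-1.32), Diaph2 (-1.31), Prkce (-1.29), Vps13b (-1.11), Tbc1d5 (-0.99), Tcf12 (-0.83) and Lrba (-0.76) with LX-A2003, where Lpp was also called. The LX-A3928 values were Pard3b (-4.12), Sox5 (-3.94), Ptprg (-2.95), Exoc4 (-2.90), Cadps2 (-2.56), Magi1 (-2.48), Lpp (-2.51), Foxp2 (-2.12), Bbs9 (-2.09), Nfib (-1.53), Prkce (-1.26), Nfia (-1.23), Diaph2 (-1.05), Vps13b (-0.91) and Lrba (-0.85), and Tbc1d5 was also called. Of the genes not called at 168 h, Rora had the highest PBS level, with values of -0.51 and -0.43, beside Tcf4 at -0.32 and Tcf12 at -0.42 with LX-A3928.

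Of the 6 receptors, 5 were called lower with LX-A1656 at 24 h, 6 at 72 h and 4 at 168 h. The shares of all tested genes called lower were 1.88%, 23.4% and 29.7% at these times. Erbb4 is a receptor tyrosine kinase of the EGF receptor family. At 24 h it stood at 5.57, 7.68, 4.34 and 8.15 CPM in the 4 PBS libraries, 0.386, 0.733, 0.929 and 1.25 after LX-A1656, 1.2, 2.24, 0.994 and 1.06 after LX-A2003 and 1.66, 1.76, 1.7 and 1.89 after LX-A3928. Every treated library lay below every PBS library at 24 h, and the change was -2.92 ± 0.34 (adjusted p = 7.18e-08) after LX-A1656, -2.22 ± 0.31 (adjusted p = 1.15e-05) after LX-A2003 and -1.87 ± 0.30 (adjusted p = 5.9e-05) after LX-A3928. At 168 h its levels were 5.52 to 9.11 CPM in PBS and 0.241 to 0.742, 0.464 to 0.828 and 0.227 to 0.447 CPM with the oligonucleotides in the same order. The value with LX-A3928 at 168 h, -4.35 ± 0.37, was the lowest of the 44 genes in that comparison.

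The 4 receptor-type tyrosine phosphatases, Ptprg, Ptprd, Ptprk and Ptprm, remove phosphate from tyrosine on proteins, and they followed different courses. Ptprg at 72 h was at 38.8, 41.8, 44.8 and 28.9 CPM in PBS, 1.56, 1.18, 1.39 and 1.58 after LX-A1656, 3.79, 4.5, 2.63 and 3.87 after LX-A2003 and 6.55, 2.32, 4.63 and 3.31 after LX-A3928. The highest treated library was below the lowest PBS library, and the changes were -4.74 ± 0.25 (adjusted p = 4.05e-20), -3.39 ± 0.23 (adjusted p = 1.17e-15) and -3.16 ± 0.23 (adjusted p = 1.28e-14). With LX-A1656 Ptprg was less low by 168 h, at 3.5 to 6.08 CPM, a difference between the effects at 168 and 72 h of 1.91 ± 0.33 (adjusted p = 1.08e-05). Ptprg at 24 h already had ranges of 8.63 to 9.42, 11.4 to 18.2 and 15.3 to 22 CPM against 30.9 to 37.8 in PBS.

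Ptprd kept falling. At 24 h it was at 96.8 to 112 CPM in PBS and 101 to 112 with LX-A3928, which overlapped, and at 63.4 to 70.2 with LX-A1656. By 168 h it was at 112, 130.3, 88.4 and 123 CPM in PBS, 2.82, 1.97, 5.26 and 3.46 after LX-A1656, 22.5, 18.6, 20.9 and 33.1 after LX-A2003 and 33.4, 19.1, 29.8 and 19.2 after LX-A3928, with no overlap between any treated group and PBS. The changes at 168 h were -5.06 ± 0.23 (adjusted p = 1.99e-23), -2.25 ± 0.19 (adjusted p = 1.52e-13) and -2.16 ± 0.19 (adjusted p = 7.64e-13), and the first was the lowest of the 44 genes in its comparison. The levels with LX-A1656 were 2.98% of PBS at 168 h and 10.8% at 72 h. Ptprk fell by the test at 72 and 168 h with each oligonucleotide, with changes of -2.86, -1.45 and -1.35 at 72 h and -1.99, -1.77 and -1.81 at 168 h.

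With LX-A1656, Ptprm took the opposite course to Ptprd. At 72 h the changes of Ptprm were -1.12, -1.52 and -1.13 after LX-A1656, LX-A2003 and LX-A3928. At 24 h Ptprm was at 6.11, 5.31, 4.79 and 5.6 CPM in PBS and 0.901, 1.47, 0.929 and 1.66 with LX-A1656, a change of -2.11 ± 0.29 (adjusted p = 3.46e-06). At 168 h it was at 4.14 to 7.4 CPM in PBS and 3.54 to 4.75 with LX-A1656, which overlapped, and the change was -0.26 ± 0.25 (adjusted p = 0.37). With LX-A1656 the effects at 168 and 24 h differed by 1.85 ± 0.39 (adjusted p = 0.000109) for Ptprm and -4.39 ± 0.28 (adjusted p = 3.14e-17) for Ptprd. For Ptprm this difference was not called with LX-A2003 (0.35 ± 0.37, adjusted p = 0.478) or LX-A3928 (0.47 ± 0.36, adjusted p = 0.342). Over the 12 group means, the correlation of log2 CPM was 0.08 between Ptprd and Ptprm and 0.94 between Ptprk and Ptprg, as a description of groups that share depth and controls.

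Robo1, a receptor for Slit guidance proteins, was lower at 72 h and not at 168 h. At 72 h Robo1 was at 4.14, 4.86, 2.77 and 2.99 CPM in PBS and 1.22, 1.09, 1.63 and 1.03 with LX-A1656, and the changes after LX-A1656, LX-A2003 and LX-A3928 were -1.56, -1.12 and -1.06. At 168 h the changes were 0.27, 0.12 and 0.22 (adjusted p = 0.394, 0.732 and 0.542). With LX-A2003 and LX-A3928 the libraries at 72 h overlapped with PBS. The effects on Robo1 at 168 and 72 h differed by 1.83 ± 0.40 (adjusted p = 0.000437), 1.24 ± 0.40 (adjusted p = 0.015) and 1.28 ± 0.40 (adjusted p = 0.0158). The call of this difference with LX-A2003 was lost without replicate 3 of LX-A2003 at 72 h (adjusted p = 0.0519). The 72 h call with LX-A2003 was lost without replicate 3 of LX-A2003 (adjusted p = 0.0513), and that with LX-A3928 without PBS replicate 2 or LX-A3928 replicate 3 (adjusted p = 0.0697 and 0.0676).

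The 9 scaffolds of junctions, polarity and the cytoskeleton were all called lower with LX-A1656 at 72 and at 168 h, and 7 of 9 with LX-A2003 and with LX-A3928 at each of those times. Gphn encodes gephyrin, which anchors inhibitory receptors at synapses and takes part in molybdenum cofactor synthesis. At 168 h Gphn was at 83.4, 83.8, 83.5 and 101 CPM in PBS, 4.01, 2.99, 2.74 and 3.38 after LX-A1656, 20.3, 15, 15.7 and 18.1 after LX-A2003 and 16.8, 18.2, 22.4 and 15.3 after LX-A3928. No treated library reached the lowest PBS library, and the libraries with LX-A1656 lay below all those with the other oligonucleotides. The changes were -4.75 ± 0.20 (adjusted p = 2.82e-24), -2.35 ± 0.17 (adjusted p = 1.95e-15) and -2.28 ± 0.17 (adjusted p = 8.34e-15).

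Pard3 and Pard3b are scaffolds of the polarity complex at tight junctions, and Pard3b was called at 24 h with LX-A1656 where Pard3 was not; the difference between the genes was not tested. Pard3 at 168 h was at 84.9, 93.3, 94.4 and 104 CPM in PBS, 11.1, 8.84, 11 and 8.61 after LX-A1656, 26.8, 25.3, 27.6 and 31.7 after LX-A2003 and 26.2, 33.8, 23.4 and 30.9 after LX-A3928. The groups did not overlap with PBS, and the changes were -3.25 ± 0.14 (adjusted p = 1.16e-23), -1.76 ± 0.13 (adjusted p = 3.63e-15) and -1.72 ± 0.13 (adjusted p = 1.21e-14). At 24 h the values of Pard3 were -0.43 ± 0.13, -0.17 ± 0.13 and -0.10 ± 0.13, and it was not called with any oligonucleotide. Pard3b at 24 h was at 9.79 to 18.2 CPM in PBS and 1.71 to 3.05 CPM with LX-A1656 (-2.37 ± 0.34, adjusted p = 5.19e-06). By 72 h Pard3b had ranges of 0.0817 to 1.1, 0.644 to 1.6 and 1.04 to 2.55 CPM with the oligonucleotides, against 10.8 to 17 CPM in PBS.

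Magi1 and Magi3, guanylate kinase-like scaffolds under cell junctions, were both called lower with LX-A1656 at 72 h. Magi1 at 72 h was at 62.7, 66.2, 59.7 and 52 CPM in PBS, 3.91, 6.64, 4.16 and 7.57 after LX-A1656, 18.8, 18.6, 12.7 and 11.1 after LX-A2003 and 19.7, 16.8, 22.8 and 15.5 after LX-A3928. All treated libraries were below all PBS libraries, with changes of -3.43 ± 0.21 (adjusted p = 1.71e-18), -1.98 ± 0.19 (adjusted p = 6.58e-11) and -1.68 ± 0.19 (adjusted p = 5.7e-09). Magi3, which has the shortest span of the 44 genes, had values of -0.85 ± 0.24 (adjusted p = 0.00353), -0.76 ± 0.24 (adjusted p = 0.0307) and -0.56 ± 0.24 (adjusted p = 0.146) at the same time. The call of Magi3 with LX-A2003 was lost in 4 of 8 fits that left out 1 library, with an adjusted p of up to 0.153. The third family member, Magi2, was below the level rule.

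Lpp, a LIM domain protein of focal adhesions, was at 58.2, 52.4, 54 and 46.7 CPM in PBS at 72 h, 5.04, 4.64, 5.55 and 5.13 after LX-A1656, 12.2, 10.8, 10.3 and 8.01 after LX-A2003 and 11.5, 10.4, 10.4 and 10.9 after LX-A3928. The treated groups were tight and far below PBS, and the changes were -3.37 ± 0.21 (adjusted p = 1.14e-17), -2.35 ± 0.20 (adjusted p = 2.28e-12) and -2.28 ± 0.20 (adjusted p = 7.5e-12). Nav2, a neuron navigator that binds microtubules, fell late with LX-A1656. Its changes with that oligonucleotide were 0.00 at 24 h, -0.86 at 72 h and -2.75 at 168 h. The effects at 168 and 72 h differed by -1.88 ± 0.28 (adjusted p = 9.82e-07). With LX-A2003 and LX-A3928, Nav2 at 168 h changed by -0.78 and -0.84, and the treated libraries overlapped with PBS. At 72 h Nav2 with LX-A3928 was already at -1.11 (adjusted p = 8.01e-05), with every treated library below every PBS library. Diaph2, a formin that nucleates actin, changed at 72 h by -2.06, -2.04 and -1.49. Dmd, which encodes dystrophin and has a span of 2257.27 kb, had values of -0.81 ± 0.24 (adjusted p = 0.0052), -0.31 ± 0.24 (adjusted p = 0.499) and -0.31 ± 0.24 (adjusted p = 0.506) at 72 h.

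**Figure D2:**
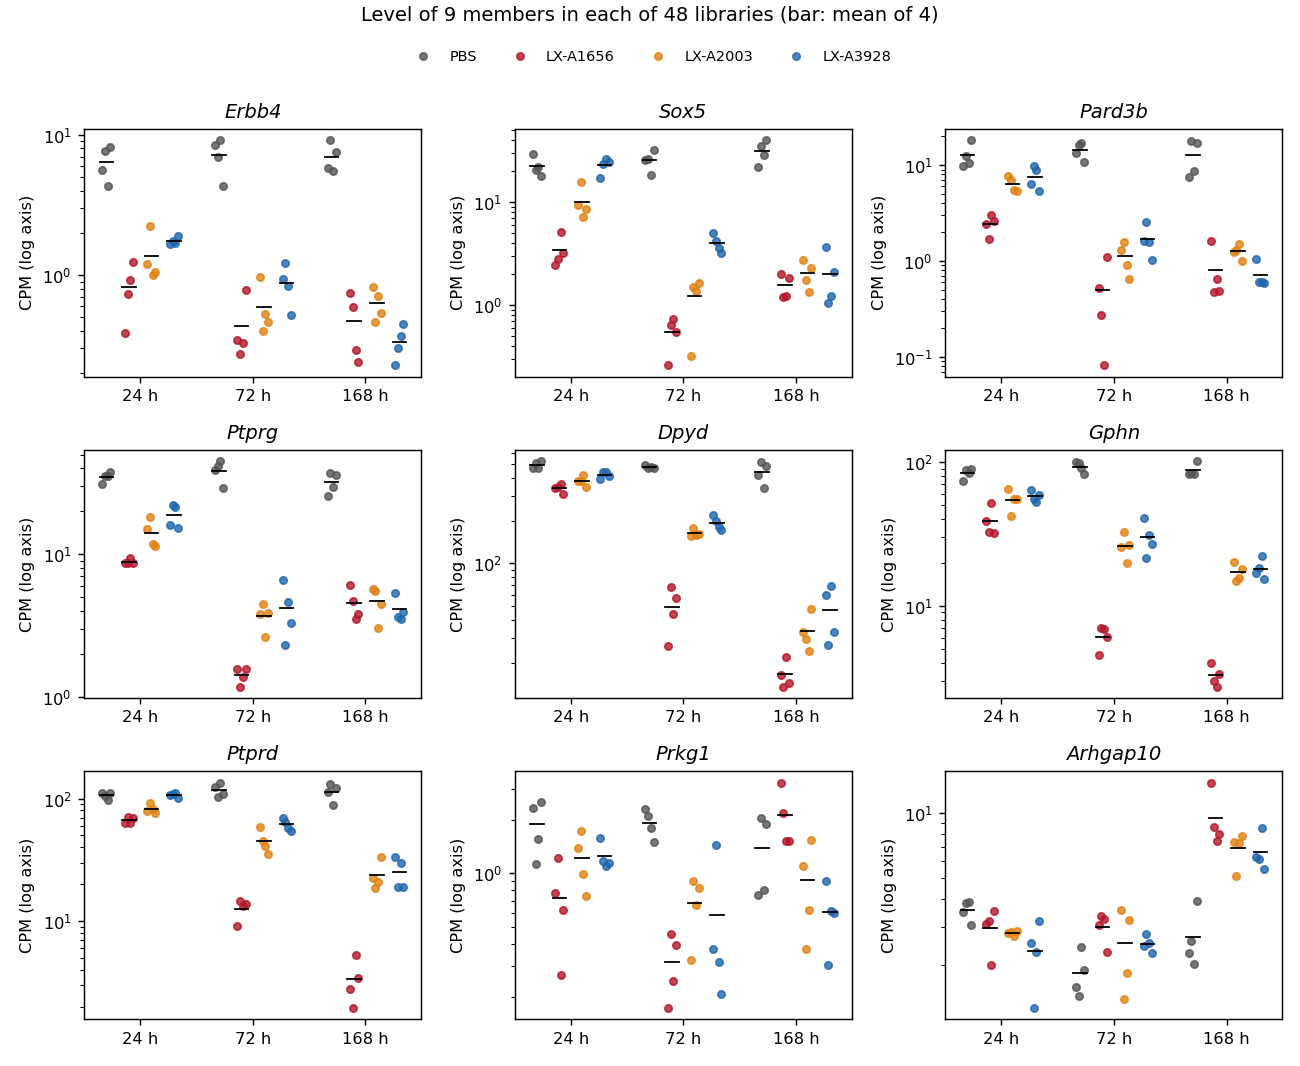
CPM on a log axis is shown for 9 of the genes in each of the 48 libraries at 24, 72 and 168 h, with points for libraries (PBS grey, LX-A1656 red, LX-A2003 orange, LX-A3928 blue) and a bar at the mean of 4. Erbb4, Ptprg and Pard3b are already apart from PBS at 24 h with LX-A1656, Dpyd and Ptprd fall at each later time, Prkg1 with LX-A1656 overlaps with PBS at 168 h, and Arhgap10 rises above PBS at 168 h.

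All 7 genes of membrane traffic and the cilium were called lower with LX-A1656 at 72 h, and 6 of 7 with LX-A2003 and LX-A3928. The shares of all tested genes called lower were 23.4%, 6.55% and 5.33% in the same order. Cadps2 primes dense-core vesicles for release. At 72 h Cadps2 was at 37.5, 30.4, 41.1 and 37.3 CPM in PBS, 1.04, 2.27, 2.37 and 2.21 after LX-A1656, 8.34, 7.4, 6.84 and 8.47 after LX-A2003 and 10.3, 9.74, 10.6 and 7.04 after LX-A3928. Every treated library was below every PBS library, and those with LX-A1656 were below those with the other oligonucleotides. The changes were -4.20 ± 0.25 (adjusted p = 1.27e-18), -2.24 ± 0.22 (adjusted p = 9.4e-11) and -1.95 ± 0.22 (adjusted p = 4.76e-09).

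Exoc4, a subunit of the exocyst that tethers vesicles to the plasma membrane, was at 8.37 to 14.4 CPM in PBS at 72 h and at 0.174 to 1.81, 0.921 to 1.84 and 0.518 to 2.93 CPM after LX-A1656, LX-A2003 and LX-A3928, with changes of -3.96 ± 0.38, -3.02 ± 0.36 and -2.77 ± 0.35. Bbs9, a subunit of the BBSome that carries cargo to cilia, changed by -3.21 ± 0.28, -2.13 ± 0.25 and -1.76 ± 0.25 at 72 h. With LX-A1656 the Bbs9 effect was smaller at 168 h by 1.34 ± 0.37 (adjusted p = 0.00403). Tbc1d5, a regulator of the retromer, changed at 72 h by -2.13, -1.42 and -1.13. Vps13b, a lipid transfer protein of the Golgi, changed by -2.06, -0.98 and -0.73, and Lrba, a BEACH domain protein of vesicle traffic, by -1.82, -0.77 and -0.82. With LX-A3928 at 72 h the call of Vps13b was lost without LX-A3928 replicate 4 or PBS replicate 4 (adjusted p up to 0.118), and that of Lrba without LX-A3928 replicate 4 or PBS replicate 2 or 3 (up to 0.119). Lrba with LX-A2003 at 72 h was lost in 5 of 8 fits (up to 0.0923), and at 168 h without PBS replicate 2 with LX-A2003 (0.0959) and LX-A3928 (0.0547). Nbea, another BEACH domain protein, was called with LX-A1656 at 72 h alone (-1.33 ± 0.52, adjusted p = 0.0317); its treated libraries overlapped with PBS, and the call was lost in 5 of 8 fits that left out 1 library (adjusted p up to 0.224).

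Of the 5 enzymes and genome maintenance proteins, all were called lower with LX-A1656 at 72 and 168 h, where 23.4% and 29.7% of all tested genes were. Dpyd encodes dihydropyrimidine dehydrogenase, the first enzyme of uracil and thymine breakdown. Dpyd at 72 h was at 493, 473, 480.3 and 474 CPM in PBS, 26.2, 68.6, 43.8 and 57 after LX-A1656, 157, 177, 158 and 162 after LX-A2003 and 221, 199, 179.8 and 172 after LX-A3928. At 168 h it was at 419, 523, 342 and 485 CPM in PBS and 13.6 to 21.7, 24 to 47.7 and 26.7 to 69 CPM in the same order of oligonucleotides. Treated libraries never overlapped with PBS at these times, and each oligonucleotide left less at 168 h than at 72 h. The changes at 168 h were -4.74 ± 0.24 (adjusted p = 3.16e-21), -3.72 ± 0.23 (adjusted p = 6.9e-18) and -3.24 ± 0.23 (adjusted p = 5.49e-16). The effects at 168 and 72 h differed by -1.45 ± 0.30 (adjusted p = 0.000199), -2.17 ± 0.30 (adjusted p = 2.08e-07) and -1.92 ± 0.30 (adjusted p = 3.59e-06).

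Pcca, the alpha subunit of propionyl-CoA carboxylase in mitochondria, also fell. At 168 h Pcca was at 181, 207, 157 and 203 CPM in PBS, 23.5, 19.5, 24.5 and 16.3 after LX-A1656, 27.9, 25.6, 20.9 and 34 after LX-A2003 and 50.5, 35.2, 54.4 and 31.4 after LX-A3928, with no overlap. Its changes at 168 h were -3.16 ± 0.19 (adjusted p = 2.57e-19), -2.79 ± 0.18 (adjusted p = 3.56e-17) and -2.13 ± 0.18 (adjusted p = 1.05e-13), against -2.57, -1.23 and -0.87 at 72 h. Fto, an RNA demethylase, changed by -2.35, -1.48 and -1.46 at 72 h and by -2.04, -1.44 and -1.79 at 168 h. Cdkal1, a tRNA-modifying enzyme, changed by -1.89, -1.58 and -1.62 at 168 h. Spidr, a scaffold in DNA repair, was called with LX-A1656 (-0.75 at 72 h and -0.99 at 168 h) and lay between -0.21 and 0.12 in the comparisons of the other oligonucleotides, and the call at 72 h was lost without LX-A1656 replicate 1 (adjusted p = 0.0543).

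Of the 11 transcription and chromatin regulators, 1 was called lower with LX-A1656 at 24 h, 10 at 72 h and 8 at 168 h. The shares of all tested genes called lower were 1.88%, 23.4% and 29.7% at these times. Sox5 and Sox6 are paired DNA-bending factors without a transactivation domain of their own. Sox5 at 72 h was at 25.7, 26.5, 18.4 and 31.9 CPM in PBS, 0.261, 0.636, 0.735 and 0.552 after LX-A1656, 0.325, 1.5, 1.38 and 1.66 after LX-A2003 and 5.05, 4.21, 3.58 and 3.21 after LX-A3928. Each treated group was below PBS, and the changes were -5.52 ± 0.37 (adjusted p = 5.42e-17), -4.36 ± 0.33 (adjusted p = 5.11e-14) and -2.66 ± 0.29 (adjusted p = 3.49e-09), the first being the lowest value of any of the 44 genes in the 9 comparisons. At 24 h Sox5 was at 18 to 29.2 CPM in PBS, 2.45 to 5.17 after LX-A1656, 7.14 to 15.6 after LX-A2003 and 17.4 to 26.5 after LX-A3928, so only the last overlapped with PBS. The 24 h call with LX-A2003 (-1.15 ± 0.27, adjusted p = 0.0111) was lost without PBS replicate 1 or LX-A2003 replicate 3 or 4, with an adjusted p of up to 0.0848.

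Sox6 was not called at 24 h (-0.02, 0.26 and 0.30) and fell later. Its range with LX-A1656 was 8.34 to 12 CPM at 72 h and 2.51 to 4.42 at 168 h, against 26.4 to 31.6 and 20.0 to 32.9 CPM in PBS. The changes at 168 h were -2.88 ± 0.24 (adjusted p = 1.69e-14), -1.64 ± 0.22 (adjusted p = 2.86e-08) and -1.06 ± 0.22 (adjusted p = 7.6e-05). Nfia and Nfib, nuclear factor I proteins, moved closely together, with changes of -2.06 and -2.06 with LX-A1656 at 72 h, -0.93 and -0.94 with LX-A2003, and -0.75 and -0.75 with LX-A3928. Their correlation over the 12 group means was 0.98, where the median over the 946 pairs of the 44 genes was 0.79.

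Foxp1 and Foxp2 are forkhead repressors. Foxp2 at 72 h was at 1.1, 1.99, 1.08 and 1.79 CPM in PBS and at 0, 0.182, 0.0817 and 0 CPM with LX-A1656. With LX-A2003 it was at 0.108, 0.7, 0.329 and 0.552 CPM and with LX-A3928 at 0.686 to 1.11 CPM, and the last group overlapped with PBS. The LX-A1656 libraries held 3 reads against 54 in PBS, a ratio of 4.17% (95% exact Clopper-Pearson interval 0.834 to 12.9%, counting error only). The call with LX-A2003 at 72 h was lost in 3 of 8 fits that left out 1 library (adjusted p up to 0.0708). At 24 h Foxp2 was the highest of the 44 genes in all 3 comparisons (0.46 ± 0.51, 0.87 ± 0.49 and 0.99 ± 0.48) and was not called. Foxp1 had values of -1.05 ± 0.30 (adjusted p = 0.00363), -0.88 ± 0.30 (adjusted p = 0.0492) and -0.40 ± 0.30 (adjusted p = 0.484) at 72 h, and of -0.39 with LX-A1656 at 168 h, which was not called and became 0.064 with scaling by library totals. The call of Foxp1 with LX-A2003 was lost in 7 of 8 fits that left out 1 library (adjusted p up to 0.195).

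Zbtb20, a zinc finger repressor of fetal genes in liver, changed by -2.32, -1.12 and -1.51 at 168 h, and its call with LX-A3928 at 72 h (-0.85) was lost without LX-A3928 replicate 4 or PBS replicate 3 (adjusted p up to 0.104). Tcf4 and Tcf12 are basic helix-loop-helix E proteins. Tcf12 had values of -1.22 ± 0.22 (adjusted p = 9.16e-06), -0.83 ± 0.22 (adjusted p = 0.00629) and -0.54 ± 0.22 (adjusted p = 0.117) at 72 h, and Tcf4 of -0.76 ± 0.24 (adjusted p = 0.00811), -0.53 ± 0.24 (adjusted p = 0.172) and -0.47 ± 0.24 (adjusted p = 0.254). Tcf4 with LX-A2003 at 168 h was at -0.11, not called, and at 0.29 with scaling by library totals. Its call with LX-A1656 at 168 h (-0.71) was lost without LX-A1656 replicate 1 or PBS replicate 2 (adjusted p up to 0.0929). Rora, a nuclear receptor of the clock and of lipid metabolism that holds the longest stretch without an exon of the 44 genes, had values of -0.55 ± 0.23 (adjusted p = 0.0448) with LX-A1656 at 72 h and 0.46 ± 0.23 (adjusted p = 0.0753) at 168 h. The 72 h call of Rora was lost in 5 of 8 fits that left out 1 library (adjusted p up to 0.247).

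The 5 kinases, phosphodiesterases and GTPase regulators included genes called in both directions. Prkce, protein kinase C epsilon, was called lower at 72 and 168 h with each oligonucleotide, with changes of -1.92, -1.54 and -1.02 at 72 h. Prkg1, the cGMP-dependent protein kinase, was at 2.31, 2.1, 1.8 and 1.5 CPM in PBS at 72 h and 0.174, 0.455, 0.245 and 0.394 with LX-A1656 (-2.56 ± 0.50, adjusted p = 3.07e-05). At 168 h the values were 0.754, 2.07, 0.808 and 1.9 CPM in PBS and 3.26, 2.21, 1.52 and 1.53 with LX-A1656, which overlapped (0.60 ± 0.41, adjusted p = 0.206). The LX-A1656 effects on Prkg1 at 168 and 72 h differed by 3.16 ± 0.65 (adjusted p = 0.000175). With LX-A3928 at 168 h Prkg1 was called lower (-1.20), with overlapping libraries, and the call was lost in 4 of 8 fits that left out 1 library (adjusted p up to 0.146). Pde4d, a cAMP phosphodiesterase, was lower with LX-A1656 at 24 h (-1.27 ± 0.37, adjusted p = 0.0473) and higher at 168 h (1.12 ± 0.31, adjusted p = 0.00176), where it was at 7.79, 10.9, 7.36 and 8.45 CPM against 4.15, 4.35, 3.36 and 3.94 in PBS. With LX-A2003, Pde4d was lower at 72 h (-1.25 ± 0.36, adjusted p = 0.013), a call lost in 4 of 8 fits that left out 1 library, and with LX-A3928 its changes were 0.23, -1.04 and -0.18 over the 3 times.

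Arhgap10, a GTPase-activating protein, rose. At 168 h Arhgap10 was at 2.26, 2.59, 2.02 and 3.94 CPM in PBS, 13.8, 8.66, 7.42 and 7.96 after LX-A1656, 7.32, 5.11, 7.31 and 7.79 after LX-A2003 and 6.29, 6.11, 8.52 and 5.52 after LX-A3928. Every treated library was above every PBS library, and the changes were 1.80 ± 0.25 (adjusted p = 3.74e-08), 1.35 ± 0.25 (adjusted p = 1.65e-05) and 1.28 ± 0.26 (adjusted p = 5.41e-05). At 72 h it was called with LX-A1656 (0.70 ± 0.28, adjusted p = 0.0315), where PBS itself was at 1.44 to 2.41 CPM after 3.06 to 3.9 at 24 h and LX-A1656 was at 2.29 to 3.36 after 1.99 to 3.53. The libraries at 72 h overlapped with PBS and the call was lost in 6 of 8 fits that left out 1 library (adjusted p up to 0.0983). The marker genes of monocytes and recruited macrophages and of stellate cells were also higher at 168 h, as given above, and their part in the rise of Arhgap10 was not tested.

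Ralgapa1, Mllt3 and Rbms3 were called in none of the 9 comparisons with PBS. Ralgapa1, a catalytic subunit of a GTPase-activating complex for Ral, ranged from -0.06 to 0.28. Mllt3, a chromatin reader of the super elongation complex, was the highest of the 44 genes at 72 h in the comparisons of LX-A1656 and LX-A3928: it was at 1.22, 2.87, 3.01 and 3.39 CPM in PBS, 2.78, 3.82, 6.61 and 6.23 with LX-A1656 and 4.18, 6.2, 4.31 and 2.38 with LX-A3928. These libraries overlapped with PBS, and the changes were 0.88 ± 0.46 (adjusted p = 0.115) and 0.69 ± 0.47 (adjusted p = 0.429). Rbms3, an RNA-binding protein with a span of 1057.17 kb, ranged from -0.38 to 0.11. A missed threshold does not show that these genes did not change.

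**Figure D3:**
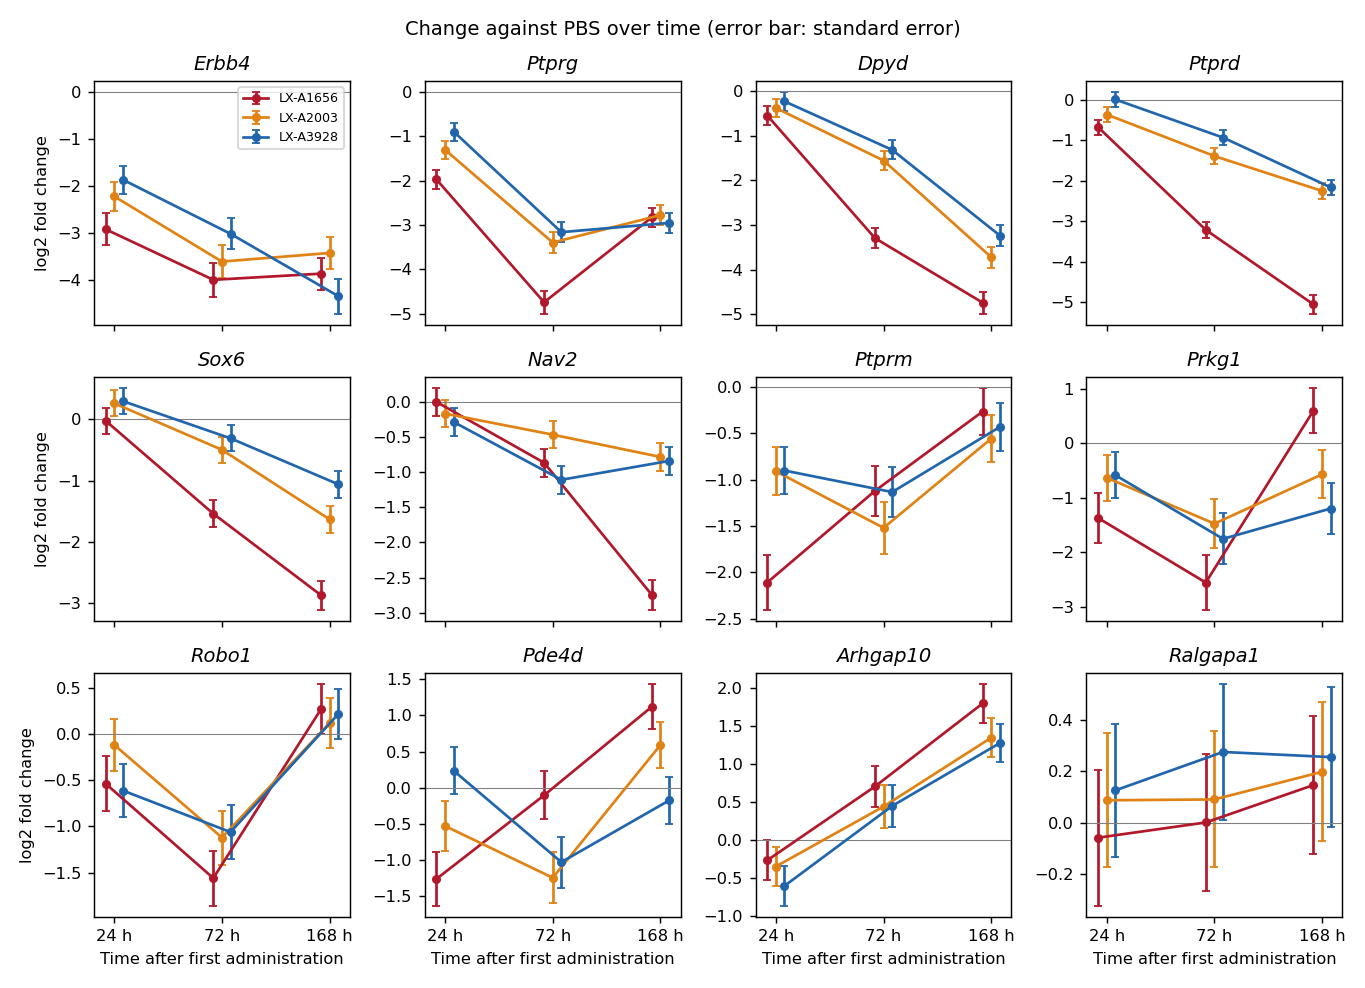
The log2 fold change against PBS of the same time (vertical axis, error bars 1 standard error) is shown for 12 of the genes at 24, 72 and 168 h for LX-A1656 (red), LX-A2003 (orange) and LX-A3928 (blue), with a separate vertical scale in each panel. Dpyd, Ptprd, Sox6 and Nav2 with LX-A1656 are lowest at 168 h, Ptprg with LX-A1656 and Robo1 are lowest at 72 h, and Ptprm with LX-A1656 is lowest at 24 h.

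Time itself moved none of the 44 genes past the threshold in PBS. Between 24 and 72 h edgeR's test called 0 genes, with 1 of the 44, Arhgap10 at -0.96, at an unadjusted p under 0.05, where 0.0789% of all tested genes were called. Between 24 and 168 h edgeR called 0, with 3 at an unadjusted p under 0.05, where 1.03% of all tested genes were called. DESeq2 also called 0 in both. Values ranged from -0.96 to 0.80 and from -0.59 to 0.80.

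The effect was lower at 168 h than at 24 h for more genes than it was higher. The interaction test called 31 of the 44 with LX-A1656 (27 lower and 4 higher), 24 with LX-A2003 (23 and 1) and 26 with LX-A3928 (25 and 1), where 47%, 38.5% and 32.4% of all tested genes were called in either direction. The smallest p-values belonged to Ptprd (-4.39), Pard3 (-2.82) and Gphn (-3.63) with LX-A1656, Dpyd (-3.35), Pcca (-2.37) and Pard3 (-1.59) with LX-A2003 and Dpyd (-3.01), Sox5 (-3.97) and Pard3 (-1.62) with LX-A3928. The 4 that moved up with LX-A1656 were Pde4d (2.39), Arhgap10 (2.07), Prkg1 (1.97) and Ptprm (1.85). With scaling by library totals alone the split for LX-A1656 was 17 lower and 6 higher.

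Between 72 and 168 h the effect was tested for a further difference, a test added after the values were seen. With LX-A1656 it called 15 of the 44, 6 lower and 9 higher, and with scaling by library totals 4 lower and 12 higher. The 6 that fell further were Nav2 (-1.88), Ptprd (-1.85), Dpyd (-1.45), Sox6 (-1.33), Gphn (-0.83) and Pard3 (-0.72), and the 9 that moved up were Prkg1 (3.16), Ptprg (1.91), Robo1 (1.83), Bbs9 (1.34), Pde4d (1.23), Arhgap10 (1.10), Rora (1.02), Lpp (0.91) and Ptprk (0.87). With LX-A2003 it called 10, 7 lower and 3 higher (2 and 9 with library totals), and with LX-A3928 9, 8 lower and 1 higher (4 and 3). The shares of all tested genes called were 30.1%, 29.7% and 23%, so the 15, 10 and 9 calls of 44 are near or below the background. The calls of Pde4d and Arhgap10 with LX-A1656 were lost in 7 and 4 of the 16 fits that left out 1 library, and that of Ptprm with LX-A2003 in 13 of 16 (adjusted p up to 0.123).

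The oligonucleotides were compared in pairs at matched times, in 9 comparisons. Their doses are not stated in the material used here, so the differences are between groups and not at a known matched dose. LX-A2003 against LX-A1656 called 1 of the 44 genes at 24 h, 23 at 72 h (22 higher with LX-A2003) and 20 at 168 h (18 higher), where 0.284%, 35.9% and 32.1% of all tested genes were called in either direction. LX-A3928 against LX-A1656 called 9 (all higher with LX-A3928), 27 (26 higher) and 22 (19 higher), where 2.9%, 40.6% and 41.7% of all tested genes were called. At 72 h the medians over the 44 genes were 0.90 and 0.99, against -0.03 over all tested genes in both.

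At 72 h Pard3 with LX-A2003 was 296% of its LX-A1656 level (1.57 ± 0.14, adjusted p = 7.79e-13), and with LX-A3928 it was 354% (1.82 ± 0.14, adjusted p = 5.65e-15). The next by p for LX-A2003 were Gphn (2.10), Ptprd (1.83), Dpyd (1.74), Cadps2 (1.96) and Nfib (1.12), and for LX-A3928 Gphn (2.30), Ptprd (2.28), Pcca (1.69), Dpyd (1.98) and Cadps2 (2.25). All libraries of either oligonucleotide were above all LX-A1656 libraries for these genes. At 168 h the smallest p-values were those of Ptprd (2.81), Gphn (2.40), Pard3 (1.49), Nav2 (1.97) and Tbc1d5 (1.60) for LX-A2003 and Ptprd (2.90), Gphn (2.47), Pard3 (1.53), Nav2 (1.91) and Tbc1d5 (1.59) for LX-A3928. Genes lower than with LX-A1656 at 168 h were Rora (-0.98) and Prkg1 (-1.17) with LX-A2003 and Pde4d (-1.30), Prkg1 (-1.80) and Rora (-0.90) with LX-A3928. The call of Prkg1 with LX-A2003 was lost in some of the 8 fits that left out 1 library.

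At 24 h the 9 genes higher with LX-A3928 than with LX-A1656 were led by Sox5 (2.75), Ptprg (1.08), Pard3b (1.63), Pde4d (1.50), Ptprm (1.21) and Prkce (0.75). The count was 4 without LX-A3928 replicate 3 and 5 without LX-A1656 replicate 1, 2 or 3. The call of Ptprm was lost in 4 of 8 fits that left out 1 library, that of Prkce in 3 and that of Pde4d in 2 (adjusted p up to 0.0855). The gene called between LX-A2003 and LX-A1656 was Sox5 (1.57 ± 0.30, adjusted p = 0.00566), and the call was lost without LX-A1656 replicate 1 or 2 or LX-A2003 replicate 2, with an adjusted p of up to 0.0893.

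LX-A3928 and LX-A2003 differed in 1 of the 44 genes at each time, where 0.15%, 0.718% and 8.1% of all tested genes were called at 24, 72 and 168 h. That gene was Sox5 at 24 h (1.18 ± 0.27, adjusted p = 0.0486) and at 72 h (1.70 ± 0.34, adjusted p = 0.00449), and Pcca at 168 h (0.66 ± 0.17, adjusted p = 0.0148). The 72 h difference in Sox5 was called in all 8 fits that left out 1 library; the call at 24 h was lost in 6 of 8 (adjusted p up to 0.351) and that of Pcca in 3 of 8 (up to 0.141). For genes that were not called the interval of the difference is wide or narrow by level: at 72 h it was 0.24 (95% interval -0.18 to 0.66) for Dpyd, 0.20 (95% interval -0.14 to 0.54) for Gphn and 0.59 (95% interval -0.21 to 1.40) for Erbb4.

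Genes outside the list also showed a gradient over genomic span. With LX-A1656 at 72 h, the share called lower among genes outside the list was 17.5% under 50 kb (8940 genes), then 27.8%, 45.0% and 62.7%, and 57.1% at 500 kb and over (70 genes). In the same comparison 80.0% of the 15 listed genes of 200 to 500 kb and 93.1% of the 29 of 500 kb and over were called lower. The median change outside the list went from 0.17 to -1.44 over these bins, and the listed genes had medians of -1.92 and -2.16. With LX-A2003 and LX-A3928 at 72 h, the shares outside the list at 500 kb and over were 48.6% and 42.9%, and those of the listed genes 79.3% and 72.4%. The level rule removes listed genes that are low in PBS, and the other genes have no such rule. The list was also chosen with earlier results of these data known. These shares are therefore a description, and the difference between the sets was not tested.

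**Figure D4:**
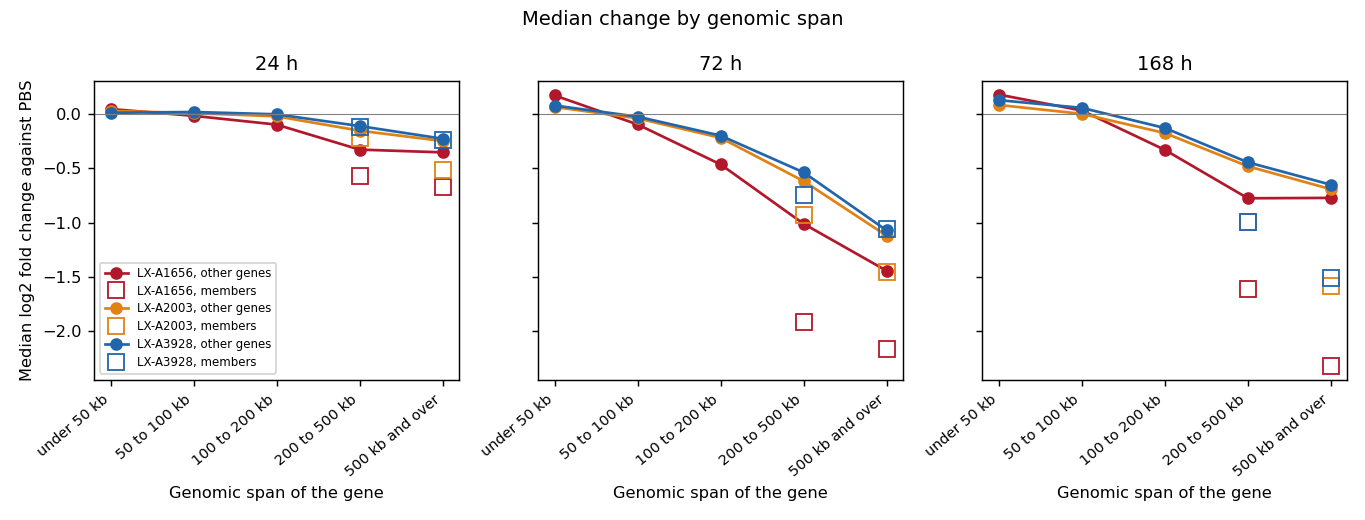
The median log2 fold change against PBS (vertical axis) is plotted over 5 bins of genomic span (horizontal axis) at 24, 72 and 168 h, with filled circles and lines for tested genes outside the list and open squares for the 44 genes, which fall in the 2 longest bins. Lines go down with span at 72 and 168 h, other than between the 2 longest bins with LX-A1656 at 168 h, and most squares lie below the circle of the same colour, except that of LX-A3928 in the longest bin at 72 h.

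Within the 44 genes, the change also tended to be lower where the span was longer. Spearman's rank correlation between span and the change at 72 h was -0.28 after LX-A1656, -0.38 after LX-A2003 and -0.42 after LX-A3928 over 44 genes, which share libraries and are no independent replicates. Over the 12395 tested genes with a span it was -0.26, -0.26 and -0.24. At 24 h it was -0.31, -0.39 and -0.19 over the 44 genes and -0.20, -0.09 and -0.03 over the 12395. At 168 h it was -0.20, -0.25 and -0.32 over the 44 genes and -0.14, -0.11 and -0.12 over the 12395. The rank correlation with the longest stretch without an exon at 72 h was -0.21, -0.29 and -0.41. Over the same 44 genes, the rank correlation with PBS level was -0.03, -0.03 and 0.00 at 24 h. It was -0.31, -0.10 and -0.13 at 72 h and -0.56, -0.50 and -0.45 at 168 h. At 168 h it was thus stronger than that with span for each oligonucleotide. How span and PBS level relate in these changes was not tested.

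A further list of genes known for very long spans, none among the 44, was read the same way, and several of its genes were known to fall in these data when it was written. Of its 51 tested genes, 19, 8 and 9 were called lower at 24 h after LX-A1656, LX-A2003 and LX-A3928, 42, 30 and 29 at 72 h, and 38, 34 and 34 at 168 h. Called higher were none at 24 h, 2 with LX-A1656 and none with the others at 72 h, and 4, 5 and 4 at 168 h. The background shares given above for each comparison apply here too. The medians of the list were -0.62, -0.28 and -0.15 at 24 h, -1.85, -1.14 and -0.91 at 72 h, and -1.50, -1.08 and -1.08 at 168 h.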

How the data were processed

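The authors deposited raw read counts for 23930 gene targets in 48 mouse liver libraries, with no normalization; per the labels' protocols the RNA was extracted with TriPure and a Tissue Lyser and amplified with a targeted whole-transcriptome panel for mouse (Ion AmpliSeq). Aligner, counter and genome build: not given in the sources used here. Reads from amplicons without molecular identifiers are not independent molecules, so the counting interval of the Foxp2 ratio covers counting error only; the other intervals come from edgeR's standard errors, which take in the spread between libraries.

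Groups came from the sample titles. Genes were filtered with filterByExpr on the 12 groups (12672 kept) and fitted in edgeR 4.0.16 (R 4.3.3, limma 3.58.1) as 12 group means with TMM factors and a robust quasi-likelihood F test (residual df 36, common biological coefficient of variation 0.211), with Benjamini-Hochberg adjustment over all tested genes in each of 26 comparisons and a threshold of 0.05. Levels are CPM after TMM scaling; the level rule of 1 CPM used library totals. The test was checked on simulated data. DESeq2 1.42.0, median-of-ratios factors, library totals, no filter, only the compared libraries, the replicate number as a block, a PBS minimum of 5 CPM and each library left out were alternatives. No 2 libraries of a group agreed within sampling noise.

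The genes, roles and lists were chosen with earlier results of these data known. The naming rule for each comparison with PBS was all called genes where 30 or fewer, otherwise the 12 lowest and 12 highest; some are named without a value. Values by library were given for the 10 genes with the smallest p over all groups and the extremes. Outside this rule they were also given for Ptprm, Robo1, Prkg1 and Pde4d.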

Additional observations from a re-analysis of the deposited data

Results flagged for a closer look

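Over 14 of the genes given by library, 168 groups of 4 were examined for a library whose gap to its nearest neighbour took up more of the group's range than Dixon's 95% limit, which chance gives in about 1 in 20 groups, and 10 such libraries were found. In PBS at 168 h, Gphn was at 101 CPM in replicate 4 and at 83.4 to 83.8 in the others. With LX-A1656, Ptprg at 24 h was at 9.42 CPM in replicate 3, Erbb4 at 72 h at 0.789 in replicate 4, Cadps2 at 1.04 at 72 h and 3.56 at 168 h in replicate 1, and Mllt3 at 168 h at 7.07 in replicate 3. With LX-A2003, Erbb4 at 24 h was at 2.24 CPM in replicate 2, Foxp2 at 0.797 in replicate 1 at 24 h and 0.806 in replicate 4 at 168 h, and Mllt3 at 168 h at 10.3 in replicate 4, where its other libraries were at 2.94 to 3.59.

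The effect against PBS differed between times by the interaction test for the following genes, as log2 differences. From 24 to 168 h it moved by -4.39 for Ptprd, -2.82 for Pard3 and -3.63 for Gphn with LX-A1656, by -3.35 for Dpyd, -2.37 for Pcca and -1.59 for Pard3 with LX-A2003, and by -3.01 for Dpyd, -3.97 for Sox5 and -1.62 for Pard3 with LX-A3928. From 72 to 168 h with LX-A1656 it moved down by -1.88 for Nav2 and -1.85 for Ptprd, and up by 1.91 for Ptprg, 3.16 for Prkg1, 1.83 for Robo1, 1.34 for Bbs9, 0.91 for Lpp, 0.87 for Ptprk, 1.02 for Rora, 1.10 for Arhgap10 and 1.23 for Pde4d. With LX-A2003 over the same interval it moved by -2.17 for Dpyd, -1.56 for Pcca, -0.80 for Pard3, 1.84 for Pde4d, 1.24 for Robo1 and 0.96 for Ptprm. With LX-A3928 it moved by -1.92 for Dpyd, -1.01 for Pard3, -1.26 for Pcca and 1.28 for Robo1.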

How the results depend on the processing

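Fitting only the compared libraries gave 29, 19 and 14 called genes at 24 h for LX-A1656, LX-A2003 and LX-A3928 (19, 7 and 7 in the fit of all libraries), 3 for LX-A2003 against LX-A1656 and 21 for LX-A3928 against LX-A1656 at 24 h, 0 for LX-A3928 against LX-A2003 at 168 h, and 4 for LX-A3928 between 72 and 168 h. DESeq2 called 12 at 24 h with LX-A2003 and 4 for LX-A2003 against LX-A1656. Library totals gave 0 for LX-A3928 against LX-A2003 at 24 and at 168 h, and turned Pde4d (0.12, LX-A1656 at 72 h), Foxp1 (0.064) and Rbms3 (0.079, both LX-A1656 at 168 h) and Tcf4 (0.29, LX-A2003 at 168 h) to positive values, all uncalled. The shares of all tested genes called under these settings are not given here. Whether the counts moved with that background was therefore not tested. The cause of these differences was not tested.

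With 1 library left out, counts ranged over 4 to 6 at 24 h with LX-A2003 and with LX-A3928, 0 to 2 for LX-A2003 against LX-A1656 and 4 to 8 for LX-A3928 against LX-A1656 at 24 h, 0 to 1, 1 to 2 and 0 to 4 for LX-A3928 against LX-A2003 at 24, 72 and 168 h, and, between 72 and 168 h, 7 to 13 with LX-A3928. Against PBS, the count with LX-A1656 at 24 h was 13 to 17 (19 with all libraries). That with LX-A2003 at 72 h was 27 to 31 (33 with all libraries), so no such fit reached either full count. Uncalled values changed sign for Ralgapa1 (-0.22 to 0.25) and Pde4d (-0.31 to 0.071) with LX-A1656 at 72 h, Rora at 72 h (-0.032 to 0.068 with LX-A2003, -0.14 to 0.13 with LX-A3928) and Tcf4 with LX-A2003 at 168 h (-0.26 to 0.11).

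Same-numbered replicates did not deviate together: over 72 pairs r ranged from -0.658 to 0.435, and 11 were above 0.1. With the replicate block the count for LX-A3928 against LX-A2003 at 24 h was 0, and Pde4d with LX-A1656 at 24 h and Rora with LX-A1656 at 72 h were among the calls lost. Low read numbers limit Foxp2, Nbea and Prkg1 most.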
